A study of Rattus norvegicus with 20 samples.

Results

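The cytochrome P450 genes of rat heart are described here as 57 genes of the 14217 that had a probe set of their own on the arrays. Members were all genes whose symbol follows the P450 pattern of family number, subfamily letter and gene number, and where a member had several probe sets, the one brightest on average over both mRNA arrays stood for it. These genes had 64 probe sets, and 6 of the members had 2 or more. Another 7 probe sets whose annotation lists several genes were left out.

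The samples came from left ventricles of Dahl rats, a strain in which salt loading leads to hypertension and heart failure. The failed heart was labelled as from a rat with congestive heart failure, for which a high-sodium diet is named on the mRNA sample alone, and the normal heart carried no such label. Both were 19 weeks of age, except that the normal H4ac sample carries no age. Each heart had 10 Affymetrix Rat Genome 230 2.0 arrays, 1 each for mRNA, for input genomic DNA (pre-IP), and for chromatin immunoprecipitated (ChIP) with antibodies to 8 histone marks: H3ac and H4ac, which are acetylated H3 and H4, the K4 methylations K4me2 and K4me3, and K9me2, K9me3, K20me3 and K27me2. For the methylated lysines the labels give no histone. A single ventricle specimen was used per experiment, and the labels do not say whether the 10 assays of a heart came from the same rat. The failed and the normal heart therefore stand for all samples with that label, and mRNA, pre-IP and ChIP may come from different animals. Every comparison of the failed with the normal heart sets 1 array against 1 array and has no replicate check, error or p-value. The source label of the normal H4ac sample names pre-IP DNA, whereas its title, description and protocol name H4ac, and it was used as H4ac.

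P450 enzymes are heme proteins that insert oxygen into lipids, steroids and drugs. Microsomal members draw electrons from P450 reductase, and mitochondrial members draw them from ferredoxin. Hepatocytes hold by far the broadest set of them, where families 1 to 3 clear drugs and family 7 starts bile acid synthesis, while the heart is known mainly for enzymes that epoxidise or hydroxylate arachidonic acid. Acetylated histones and K4 methylation are usually found at active genes, and K9, K20 and K27 methylation at silent ones. The array is an expression array, so each ChIP value comes from DNA under probes that were designed for transcripts, and the positions of those probes were not used here.

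Levels are log2 intensities after each array was set to a median of 100 and values under 10 were raised to a floor of 10. On this scale the array median is 6.64 and the floor 3.32. Enrichment is the log2 ChIP level minus the log2 pre-IP level of the heart with the same label, and each difference is the failed minus the normal heart. A level tells how bright a probe set was, and levels of different genes do not rank their transcript amounts. The classes defined next, their medians and the values of Spearman's rho sort genes by this brightness. A gene at or above the array median in both hearts is called expressed, and a gene below it in both is called silent. No detection call was used, so silent means a dim probe set and not a proven absence of transcript. Deposited array medians ran from 189 to 415.1, and the floor was reached by 2.135% to 11.036% of values per array.

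Of the cardiomyocyte markers, 7 of 7 measured were above the array median in both hearts. Of 12 hepatocyte markers, 11 were below it in both hearts, and the albumin gene Alb was at 5.03 in the failed heart and 6.04 in the normal heart. Fgg and Tat were at the floor in both. The exception was Ttr, at 7.88 in the failed heart and 7.28 in the normal heart. The mRNA labels name ventricular myocytes, yet 6 of 6 fibroblast markers, 5 of 5 endothelial markers and 5 of 6 macrophage markers were also above the median in both hearts. Summed marker intensity in the failed and the normal heart was 42597 and 20021 for fibroblasts, 10096 and 2429 for macrophages, 2092 and 4974 for smooth muscle, and 10364 and 10698 for endothelium. The brightest marker weighs most in such a sum. For macrophages this was Lyz2, at 12.90 in the failed heart and 10.37 in the normal heart, whereas Csf1r was at 7.97 in the failed heart and 7.55 in the normal heart. In bulk samples, fewer cells of a type and less RNA per cell cannot be told apart. The ratio of 3' to 5' control signal on the mRNA arrays was 22.6 in the failed heart and 11.3 in the normal heart for GAPDH, and 12.4 in the failed heart and 18.2 in the normal heart for beta-actin. The part of cell mixture and RNA quality in the mRNA differences was not tested.

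By that threshold, most P450 genes were silent in both ventricles. Of the 57 members, 11 were expressed (19.3%, against 60.5% of all genes) and 38 were silent (66.7%, against 29.8% of all genes). Another 3 members, Cyp11a1, Cyp2a1 and Cyp2a3, reached the median in the failed heart alone, and 5 members, Cyp2e1, Cyp2j3, Cyp2t1, Cyp4f1 and Cyp4f17, reached it in the normal heart alone. The expressed set was made up of Cyp1b1, Cyp20a1, Cyp26b1, Cyp27a1, Cyp2d4, Cyp2j4, Cyp2u1, Cyp4b1, Cyp4f5, Cyp4f6 and Cyp4v3. With a threshold intensity of 200 instead of 100, 8 members counted as expressed.

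Fatty acid hydroxylases of family 4 had the largest count of expressed members, 4 of 10, which is below the 60.5% of all genes. Cyp4b1, a hydroxylase of fatty acids and protoxins best known from lung, had an mRNA level of 9.06 in the failed heart and 10.09 in the normal heart, a difference of -1.03. Cyp4f6, of the subfamily that inactivates leukotrienes, was at 9.07 in the failed heart and 9.84 in the normal heart, and Cyp4f5 of the same subfamily was at 7.61 in the failed heart and 7.19 in the normal heart. Cyp4v3, the rat counterpart of a human gene mutated in a corneoretinal dystrophy, was at 9.11 in the failed heart and 8.64 in the normal heart, and its second probe set gave 6.49 in the failed heart and 6.83 in the normal heart, so the probe sets differed in direction.

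Cyp4f17 and Cyp4f1, also of subfamily 4F, passed the median only in the normal heart. The mRNA level of Cyp4f17 was 6.09 in the failed heart and 7.80 in the normal heart. Cyp4f1 was at 4.97 in the failed heart and 7.35 in the normal heart. The median mRNA difference over the 10 members of family 4 was -0.79, whereas that over all 57 members was 0.00 and that over all genes 0.15. Such a median was not particular to family 4, since the 6 members outside the functional groups used here had -0.85. In family 4 it takes in 4 silent members, and Cyp4a3, Cyp4f4, Cyp4f5 and Cyp4v3 were higher in the failed heart.

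Among arachidonate epoxygenases of subfamily 2J, Cyp2j4 was at 8.94 in the failed heart and 8.44 in the normal heart. Its neighbour Cyp2j3 was near the array median, at 6.17 in the failed heart and 6.68 in the normal heart, and its other probe set ran the other way, at 6.49 in the failed heart and 6.13 in the normal heart. The third measured member, Cyp2j10, was silent. None of the 3 reached a 2-fold difference.

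Sterol and retinoid enzymes were each represented by 1 expressed member. Cyp27a1, the mitochondrial sterol hydroxylase that makes an oxysterol and feeds bile acid synthesis in liver, was at 9.66 in the failed heart and 9.82 in the normal heart. The other 5 bile acid and oxysterol enzymes measured were silent. Cyp26b1, which degrades retinoic acid, was at 9.89 in the failed heart and 9.39 in the normal heart, and its second probe set at 6.47 in the failed heart and 6.75 in the normal heart. Its relative Cyp26a1 was silent.

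Further expressed members came from scattered families. Cyp20a1, a member with no settled substrate, was at 8.84 in the failed heart and 9.53 in the normal heart. Cyp2d4, known as a brain form of the drug-metabolising subfamily 2D, was at 7.66 in the failed heart and 8.39 in the normal heart, and its second probe set gave 6.95 in the failed heart and 7.55 in the normal heart. Cyp2u1, a fatty acid hydroxylase, differed little, with 7.63 in the failed heart and 7.44 in the normal heart. Cyp1b1, which hydroxylates estrogens and is a target of the aryl hydrocarbon receptor, was at 7.01 in the failed heart and 7.32 in the normal heart.

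**Figure D1:**
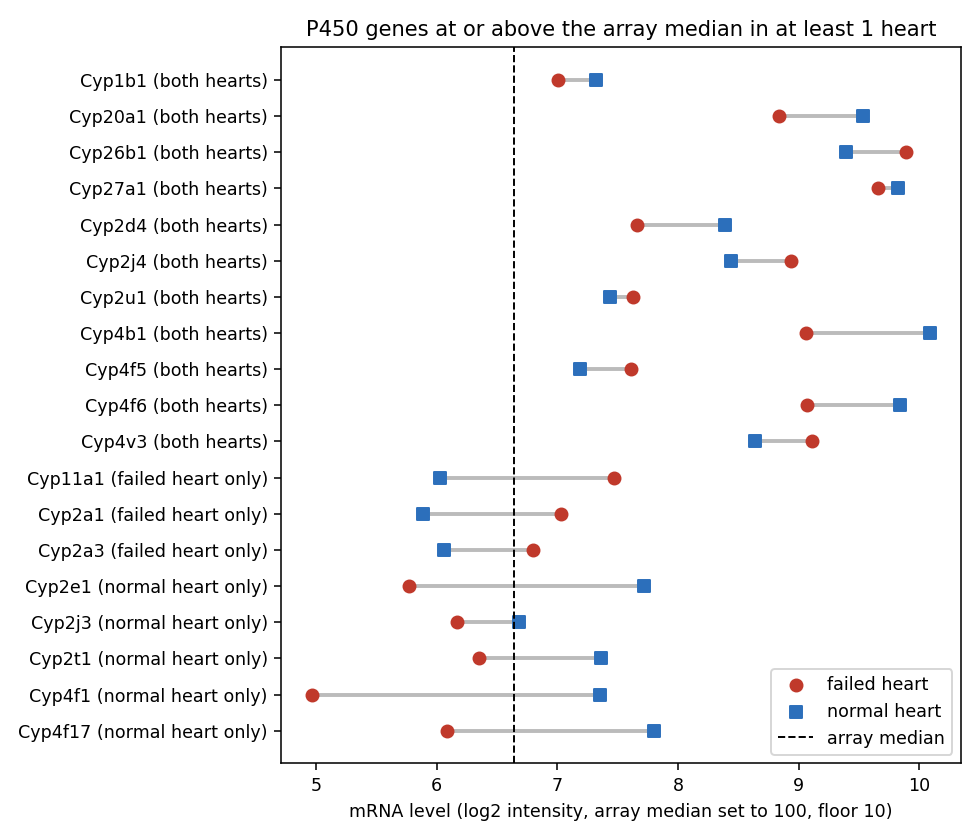
mRNA level (log2 intensity, array median set to 100, floor 10) of the 19 P450 genes at or above the array median in at least 1 heart, with circles for the failed heart, squares for the normal heart and a dashed line at the array median. Each point is 1 array; the widest gap is at Cyp4f1, at 4.97 in the failed heart and 7.35 in the normal heart.

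The liver set was almost wholly silent. Of 26 genes on the list of liver P450s, 23 were below the median in both hearts, 2 (Cyp2a1 and Cyp2e1) passed it in 1 heart, and only Cyp27a1 was expressed. Levels of the 23 silent liver genes ran from 3.32 over a median of 4.76 to 6.19 in the failed heart, and from 3.32 over a median of 4.71 to 6.39 in the normal heart. In each heart 7 of them were at the floor, 4 of these in both. Besides Cyp27a1, the probe sets of Cyp2e1, Cyp2a1, Cyp7b1 and Cyp2c23 were picked for description by their higher value of the 2 hearts, which is no ranking of transcript amounts. Cyp2e1, the ethanol-oxidising P450, was at 5.77 in the failed heart and 7.72 in the normal heart. Cyp2a1, a testosterone hydroxylase, was at 7.03 in the failed heart and 5.89 in the normal heart. Cyp7b1, an oxysterol hydroxylase, was below the median in both, at 5.92 in the failed heart and 6.39 in the normal heart. Cyp2c23, an arachidonate epoxygenase of rat kidney, was likewise below it, at 4.53 in the failed heart and 6.36 in the normal heart.

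To ask which P450 transcripts the 2 hearts held at different levels, 2-fold differences were counted among genes whose mean level was at or above the array median. Of the 15 members that passed this filter, 1 was higher in the failed heart (6.67%, against 11.9% of all genes) and 4 were lower (26.7%, against 3.07% of all genes). The 4 lower members were Cyp2e1 with a difference of -1.95, Cyp4f17 with -1.71, Cyp4b1 with -1.03 and Cyp2t1 with -1.01. Cyp2t1, which has no settled function, was at 6.35 in the failed heart and 7.36 in the normal heart. The higher member was Cyp11a1, the cholesterol side-chain cleavage enzyme that opens steroid hormone synthesis, at 7.47 in the failed heart and 6.03 in the normal heart, a difference of 1.44. Markers of the adrenal cortex, where Cyp11a1 is abundant, were below the array median in both hearts for 3 of 3 measured genes, with a summed intensity of 99.3 in the failed heart and 77.9 in the normal heart.

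The background of this count depended on how the arrays were scaled. With the values as deposited, which moved the median difference of all genes by -0.27, 6.05% of genes were higher and 6.75% lower in the failed heart, and the members gave 1 higher and 5 lower. Quantile normalization gave 6.1% higher and 5.69% lower genes, and again 1 higher and 5 lower members. The added lower member was Cyp4f6, whose difference was -0.77 as reported, -1.04 as deposited and -1.07 after quantile normalization. The 5 members counted first stayed on their side of the 2-fold line under both scalings.

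Some members that did not pass the level filter differed by at least 2-fold, and those named here were picked out after their values were seen. Without the filter 7 members were higher and 12 lower in the failed heart. The widest lower ones off the floor were Cyp4f1, with a difference of -2.38, and Cyp17a1. Cyp2b3, Cyp3a23-3a1 and Cyp2f4 were at the floor in the failed heart, with 5.81, 5.57 and 5.56 in the normal heart. Cyp1a1, the classical target of the aryl hydrocarbon receptor, was at 6.43 in the failed heart and at the floor of 3.32 in the normal heart, so it was at least 8.65-fold higher in intensity over that floor. Cyp2s1, an extrahepatic P450 of epithelia, was at 5.86 in the failed heart and 3.38 in the normal heart. Cyp17a1, the steroid hydroxylase and lyase of gonad and adrenal, was at 3.90 in the failed heart and 6.08 in the normal heart. All of these lay below the array median in the failed heart.

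Genes that supply or accompany P450 enzymes were counted in the same way, beside 11.9% of all genes higher and 3.07% lower in the failed heart. Of 9 measured genes of heme synthesis and breakdown, 7 passed the filter, 4 were higher and 0 lower. These were Alas1, the rate-limiting synthase, with 9.35 in the failed heart and 7.67 in the normal heart, Fech, which inserts iron, with 10.27 in the failed heart and 9.03 in the normal heart, Hmox2, a heme oxygenase, with 8.40 in the failed heart and 7.27 in the normal heart, and Cpox, an oxidase of the pathway, with 7.98 in the failed heart and 6.97 in the normal heart. With the values as deposited only Alas1 of these still passed 2-fold, and after quantile normalization Alas1 and Hmox2 did, beside 6.05% and 6.1% of all genes higher.

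Electron transfer genes gave 1 higher and 0 lower of 5 that passed the filter. This was Fdx1, the ferredoxin of mitochondrial P450s, at 11.05 in the failed heart and 10.03 in the normal heart, and its difference of 1.01 was 0.74 with the values as deposited and 0.59 after quantile normalization. P450 reductase, Por, was at 8.05 in the failed heart and 5.14 in the normal heart, a difference of 2.91 that the level filter left out and that was noticed after its values were seen. With the values as deposited Fdx1 was no longer counted, and Cyb5b, a cytochrome b5, was counted as lower.

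Eicosanoid enzymes that share arachidonic acid with the epoxygenases showed the widest differences of these lists. Of 10 measured genes, 6 passed the filter, 3 were higher and 0 lower, beside the same 11.9% and 3.07% of all genes, and the same 3 were higher under both other scalings. Ptgs2, the inducible cyclooxygenase, was at 8.29 in the failed heart and 5.13 in the normal heart. Ptgis, prostacyclin synthase and itself a protein of the P450 superfamily, was at 11.90 in the failed heart and 9.59 in the normal heart. Pla2g4a, the phospholipase that releases arachidonic acid, was at 8.87 in the failed heart and 7.39 in the normal heart. Ephx2, the soluble hydrolase that removes the epoxides, was at 7.86 in the failed heart and 8.41 in the normal heart. Ephx1, left out by the level filter, went the other way, at 7.49 in the failed heart and 4.74 in the normal heart. Alox15, also left out by the filter, was at 7.93 in the failed heart and 3.80 in the normal heart. Ephx2, Ephx1 and Alox15 were not counted at 2-fold and are named here after their values were seen. Macrophage markers were summed to 10096 in the failed heart and 2429 in the normal heart, mostly through Lyz2. Of the 5 that passed the filter, 2 were higher by 2-fold and 0 lower. The part of macrophages in the eicosanoid values was not tested. Of 13 measured receptors and transcription factors that drive P450 genes, 3 passed the filter, and 0 of these differed by 2-fold in either direction. The 10 left out were below the array median in both hearts, and those named here were picked after their values were seen. Off the floor, Nr1i3 differed by 2.20, Ahrr by 1.36, Hnf4a by 1.21 and Vdr by -1.76. Nr5a1, Rxra and Nr1h4 differed by 1.90, 1.58 and 1.48, with the normal heart at the floor.

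**Figure D2:**
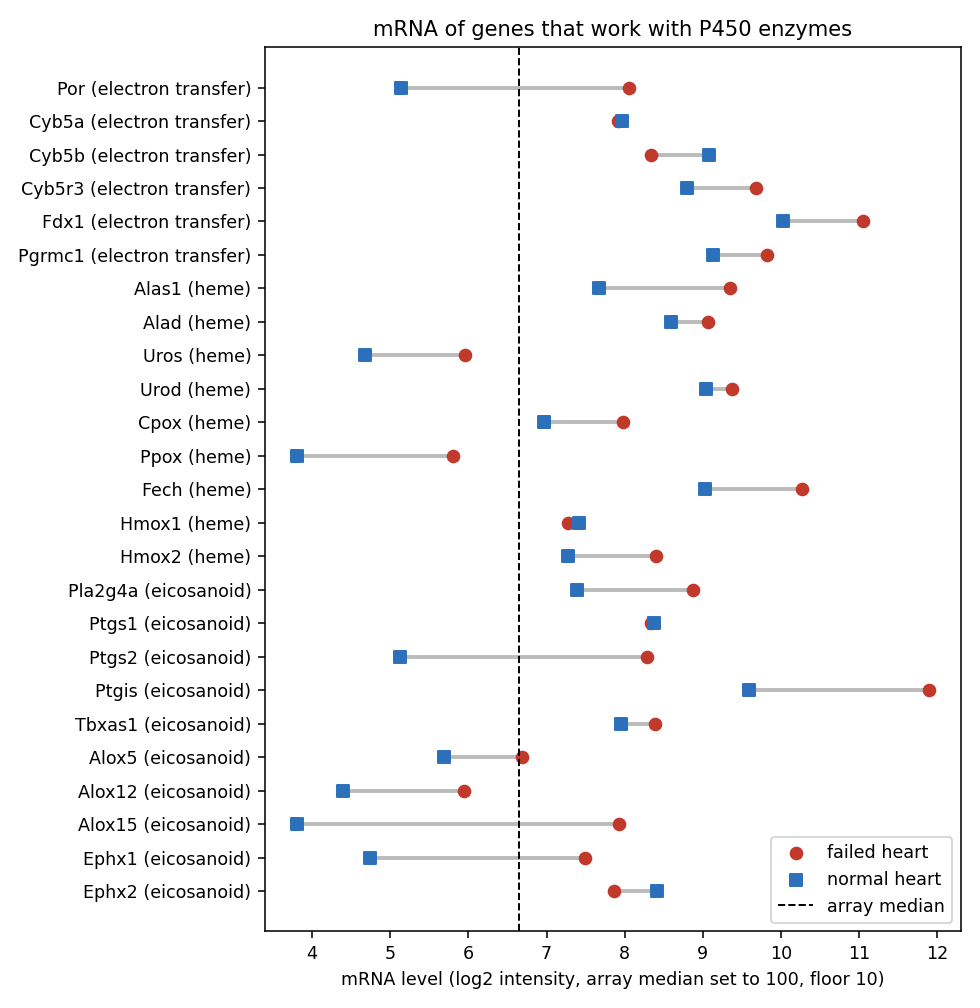
mRNA level (log2 intensity, array median set to 100, floor 10) of genes for electron transfer, heme and eicosanoid metabolism, with circles for the failed heart, squares for the normal heart and a dashed line at the array median. Por, Ptgs2 and Ptgis lie further right in the failed heart, at 8.05, 8.29 and 11.90, than in the normal heart, at 5.14, 5.13 and 9.59.

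Silent liver P450 genes had lower median enrichment of acetylated histones than expressed members in both hearts. Since ChIP and pre-IP arrays were each set to the same median, an enrichment of 0 marks the middle of the arrays and not equal amounts of ChIP and input DNA. Median H4ac enrichment of the 23 silent liver genes was -1.28 in the failed heart and -1.05 in the normal heart. For the 11 expressed members it was 0.08 in the failed heart and 0.39 in the normal heart. H4ac was below 0 in both hearts for 18 of the 23 silent liver genes (78.3%) and 3 of the 11 expressed members, against 47.3% of all silent and 25.5% of all expressed genes. With a floor of 50 the silent liver median minus the expressed median was -0.28 in the failed heart and -0.49 in the normal heart for H4ac, and -0.19 in the failed heart and 0.00 in the normal heart for H3ac. With that floor the 18 came to 10, and 9 of the 23 H4ac values in the failed heart were at the floor of 10. Over all 57 members it was below 0 in both hearts for 30, against 32.9% of all genes. No silent liver gene was above 0 in both hearts.

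H3ac and K4me2 medians ran the same way with smaller gaps. Median H3ac enrichment was -0.96 in the failed heart and -1.15 in the normal heart for silent liver genes, and -0.28 in the failed heart and -0.13 in the normal heart for expressed members. H3ac was below 0 in both hearts for 16 of 23 silent liver genes (9 with a floor of 50), against 41.6% of all silent genes. It was so for 4 of 11 expressed members, against 27.1% of all expressed genes, and for 29 of 57 members, against 31.9% of all genes. Only 1 of the 11 was above 0 in both hearts, against 41.6% of all expressed genes. Median K4me2 enrichment of silent liver genes was -0.63 in both hearts, and that of expressed members was -0.05 in the failed heart and -0.17 in the normal heart. K4me2 was below 0 in both hearts for 14 of 23 silent liver genes (9 with a floor of 50), against 32.4% of all silent genes. It was so for 4 of 11 expressed members, against 31.7% of all expressed genes, and for 24 of 57 members, against 31.5% of all genes. The K4me2 gap between all silent and all expressed genes was -0.08 in the failed heart and -0.01 in the normal heart, and that between silent liver and expressed members was -0.59 in the failed heart and -0.46 in the normal heart. The members' gap came to -0.22 in the failed heart and -0.31 in the normal heart after quantile normalization, and to -0.11 in the failed heart and 0.00 in the normal heart with a floor of 50.

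The sizes of these gaps depended on the processing. The H4ac gap between silent liver and expressed members was -1.36 in the failed heart and -1.44 in the normal heart as reported. Between all silent and all expressed genes the H4ac gap was -0.48 in the failed heart and -0.42 in the normal heart. After quantile normalization the members' gap was -0.49 in the failed heart and -0.71 in the normal heart. With a floor of 50 it was -0.28 in the failed heart and -0.49 in the normal heart. The members' H3ac gap of -0.68 in the failed heart came to -0.07 after quantile normalization, and the gap of -1.03 in the normal heart came to 0.00 with a floor of 50. Over all genes the H3ac gap was -0.32 in the failed heart and -0.37 in the normal heart. The gaps over all genes were not computed again under these alternatives. Pre-IP DNA, which holds no expression, also differed: its median level was 5.86 in the failed heart and 5.84 in the normal heart for silent liver genes, and 6.63 in the failed heart and 7.16 in the normal heart for expressed members. Leaving out members with a ChIP or pre-IP value at the floor gave H4ac medians of -1.26 in the failed heart and -0.98 in the normal heart for silent liver genes. The part of probe brightness in the gaps was not tested.

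K9me2 was the repressive mark with the clearest side. Its enrichment was above 0 in both hearts for 29 of 57 members, against 32.5% of all genes. Silent liver genes gave 14 of 23, against 44.5% of all silent genes, and expressed members 5 of 11, against 25.8% of all expressed genes. The median of silent liver genes was 0.98 in the failed heart and 0.39 in the normal heart, and that of expressed members 0.34 in the failed heart and 0.12 in the normal heart. The gap of 0.64 in the failed heart and 0.27 in the normal heart stood beside 0.42 in the failed heart and 0.48 in the normal heart for all silent against all expressed genes. Without subtraction of pre-IP the sign turned, to -0.93 in the failed heart and -1.33 in the normal heart.

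The other 4 marks separated the classes less or not in the same way in both hearts. K20me3 was above 0 in both hearts for 22 of 57 members, against 29.6% of all genes, but its class gap was 0.59 in the failed heart and -0.23 in the normal heart. K27me2 was above 0 in both hearts for 24 members, against 33.2% of all genes, with silent liver medians of 0.45 in the failed heart and 0.09 in the normal heart. K9me3 was above 0 in both hearts for 16 members, against 31.2% of all genes, and K4me3 for 15 members, against 27.7% of all genes. Median K4me3 of expressed members was 0.03 in the failed heart and -0.39 in the normal heart, no higher in the normal heart than the -0.09 of silent liver genes.

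**Figure D3:**
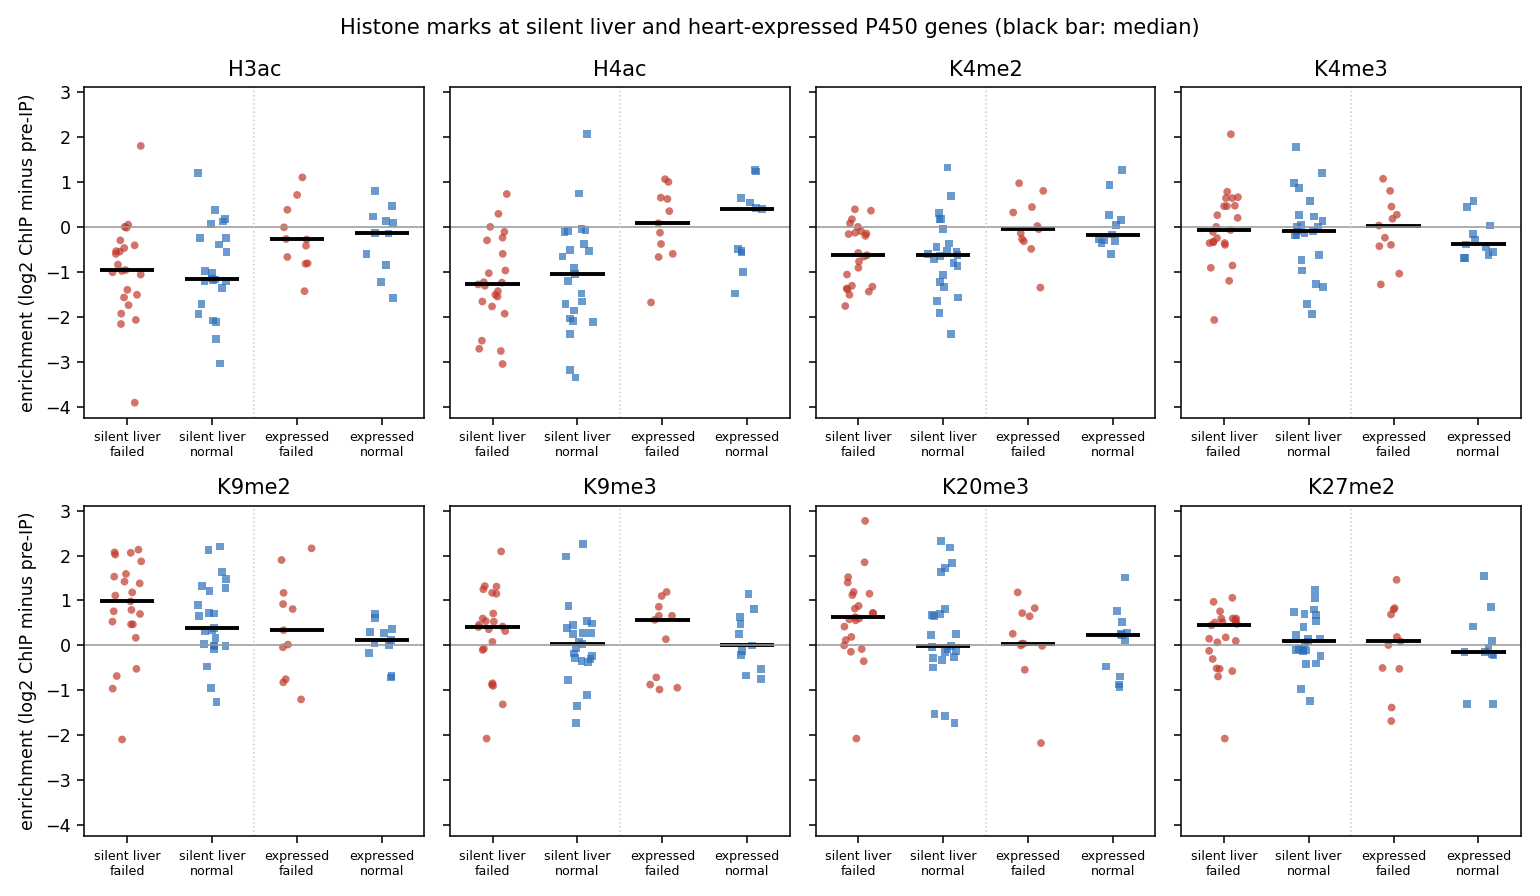
Enrichment (log2 ChIP minus pre-IP) of 8 marks for 23 silent liver and 11 expressed P450 genes, with circles for the failed heart, squares for the normal heart, 1 point per gene and black bars at the medians. H4ac medians of silent liver genes lie at -1.28 in the failed heart and -1.05 in the normal heart, below those of expressed members at 0.08 in the failed heart and 0.39 in the normal heart.

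Single members spread widely around these medians. Ranks of members within a mark cover only those with no ChIP or pre-IP value at the floor in either heart, which were 43 for H3ac, 42 for H4ac, 52 for K4me2 and K9me2, 53 for K4me3 and K9me3, 54 for K20me3 and 51 for K27me2. Cyp2c7, a liver steroid and retinoid hydroxylase, had the lowest mean enrichment of both acetyl marks, with H3ac at -3.91 in the failed heart and -3.04 in the normal heart and H4ac at -3.05 in the failed heart and -3.35 in the normal heart. Its pre-IP level was above the array median, at 8.12 in the failed heart and 8.55 in the normal heart. Cyp3a18, a liver steroid hydroxylase, was next lowest for H3ac among members off the floor, at -2.16 in the failed heart and -2.08 in the normal heart, and lowest for K4me2, at -1.33 in the failed heart and -1.92 in the normal heart, followed by Cyp2c7 at -1.31 in the failed heart and -1.57 in the normal heart. Cyp2g1, an olfactory P450, was next lowest for H4ac among members off the floor, at -3.22 in the failed heart and -1.40 in the normal heart.

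At the upper end of H3ac, H4ac and K4me2 stood members that are not on the liver list. Cyp46a1, the cholesterol hydroxylase of brain, was silent but had the highest mean H3ac, at 1.90 in the failed heart and 0.65 in the normal heart, and also the highest K9me2, at 2.88 in the failed heart and 1.48 in the normal heart. Cyp17a1 had the highest H4ac, at 1.26 in the failed heart and 0.92 in the normal heart, the highest K4me2, at 1.91 in the failed heart and 1.18 in the normal heart, and the highest K27me2, at 1.56 in the failed heart and 0.73 in the normal heart. Expressed Cyp4v3 followed in H4ac, at 0.65 in the failed heart and 1.26 in the normal heart. Silent Cyp2s1 followed in K4me2, at 0.82 in the failed heart and 1.53 in the normal heart. High values of these marks were thus found at silent as well as expressed members.

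The methylation marks had shared extremes. Cyp3a2, a male-type liver steroid hydroxylase at the mRNA floor in both hearts, had the highest K20me3, at 1.85 in the failed heart and 2.33 in the normal heart, K9me3 at 1.17 in the failed heart and 2.25 in the normal heart, and K4me3 at 0.64 in the failed heart and 1.78 in the normal heart. Cyp4a8, a fatty acid hydroxylase, came second in K20me3, at 2.25 in the failed heart and 1.68 in the normal heart, and in K9me3, at 1.83 in the failed heart and 1.41 in the normal heart. Its other probe set gave less, with K20me3 at 0.89 in the failed heart and 1.14 in the normal heart. K9me3 there was 0.52 in the failed heart and 0.15 in the normal heart. Cyp2a2, a liver testosterone hydroxylase, came second in K9me2, at 1.42 in the failed heart and 2.20 in the normal heart. Cyp11b1, the adrenal 11-beta-hydroxylase, came second in K4me3, at 0.58 in the failed heart and 1.75 in the normal heart, and Cyp2j10 second in K27me2, at 0.74 in the failed heart and 1.41 in the normal heart. All of these members are silent, and their pre-IP levels were below the array median in both hearts. Against a floor of 3.32, the pre-IP level of Cyp3a2 was 4.55 in the failed heart and 4.31 in the normal heart. That of Cyp4a8 was 3.9 in the failed heart and 5.27 in the normal heart. For Cyp11b1 it was 4.52 in the failed heart and 3.57 in the normal heart. The same input is subtracted in every mark, and the part of dim input in these shared extremes was not tested.

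Among members off the floor, Cyp2s1 had the lowest mean of K9me2, K9me3, K20me3 and K27me2. Its K9me3 enrichment was -2.52 in the failed heart and -1.65 in the normal heart, and its K27me2 enrichment -2.45 in the failed heart and -1.29 in the normal heart. Its pre-IP level was 9.32 in the failed heart and 7.60 in the normal heart, and this input enters all 8 enrichments. Cyp2t1, left out of this order, was at -1.95 in the failed heart and -2.91 in the normal heart for K9me2, the last with its ChIP value at the floor. Cyp4f17 was second lowest for K9me2, at -1.25 in the failed heart and -0.93 in the normal heart, and for K9me3, with a mean of -1.31 over the hearts. Cyp27a1 was second lowest for K20me3, at -2.17 in the failed heart and -0.87 in the normal heart, and for K27me2, at -1.38 in the failed heart and -1.30 in the normal heart. For K4me3 the lowest members were Cyp2c13, a male-type liver P450, at -0.91 in the failed heart and -1.33 in the normal heart, and expressed Cyp4b1, at -1.28 in the failed heart and -0.45 in the normal heart.

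Across the 57 members, mRNA level and enrichment were related most for H4ac, with a Spearman's rho of 0.422 in the failed heart and 0.360 in the normal heart. Over all genes the same rho was 0.232 in the failed heart and 0.195 in the normal heart. For K4me2 the members gave 0.269 in the failed heart and 0.277 in the normal heart, against 0.024 in the failed heart and -0.021 in the normal heart over all genes. The members' K4me2 rho came to 0.109 in the failed heart and 0.116 in the normal heart after quantile normalization, and to 0.247 in the failed heart and 0.079 in the normal heart with a floor of 50. That of H4ac came to 0.330 in the failed heart and 0.216 in the normal heart after quantile normalization. K9me2 ran the other way, with -0.156 in the failed heart and -0.342 in the normal heart, against -0.174 and -0.233 over all genes. K4me3 did so too, with -0.107 in the failed heart and -0.317 in the normal heart, against -0.115 and -0.138 over all genes. The members' values of K9me3, K20me3 and K27me2 were also below 0 in both hearts. Between the hearts, the members' enrichment was most alike for H4ac, with a rho of 0.551, and least for K20me3, with 0.124. These values describe probe sets that share arrays, inputs and base composition.

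Many P450 genes lie in tandem clusters, which arose by gene duplication. With at most 10 other protein-coding genes allowed between neighbours, 36 members fell into 8 clusters. The count rests on distance alone and is no count of tandem duplicates, since it also joins Cyp11a1 with Cyp1a2 and Cyp1a1. This rule was chosen after the data were seen. The biggest cluster, on chromosome 1, holds 10 measured members in the order Cyp2s1, Cyp2b3, Cyp2b21, Cyp2b12, Cyp2g1, Cyp2a3, Cyp2a1, Cyp2a2, Cyp2f4 and Cyp2t1, from subfamilies 2A, 2B, 2F, 2G, 2S and 2T.

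In this cluster the marks split the outer from the inner genes. H3ac enrichment was above 0 at the 3 outer genes in both hearts: Cyp2s1 had 0.72 in the failed heart and 1.37 in the normal heart, Cyp2f4 had 0.44 in the failed heart and 1.02 in the normal heart, and Cyp2t1 had 0.58 in the failed heart and 0.69 in the normal heart. Of all genes, 36.8% were above 0 in both hearts for H3ac and 31.9% were below 0 in both. H3ac was below 0 in both hearts at 6 of the 7 genes between the outer ones. Among these, Cyp2b12 had -2.49 in the failed heart, with its ChIP value at the floor, and -1.51 in the normal heart, and Cyp2g1 had -2.33 in the failed heart and -3.28 in the normal heart, the last with its ChIP value at the floor. The exception, Cyp2a1, had ChIP and pre-IP both at the floor in the failed heart, which gives 0.00 and no information, and -0.88 in the normal heart.

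H4ac followed the split less fully at the outer genes and K9me2 mirrored it. H4ac was below 0 in both hearts at the same count of 6 of 7 inner genes, against 32.9% of all genes. In this count Cyp2b21 and Cyp2a2 had their ChIP value of the failed heart at the floor. Inner H4ac medians were -1.77 in the failed heart and -1.40 in the normal heart. Outer H4ac medians were 0.12 in the failed heart and 0.37 in the normal heart. K9me2 was below 0 in both hearts at 3 of 3 outer genes, against 33.6% of all genes. Its outer medians were -1.95 in the failed heart and -0.45 in the normal heart. K9me2 was above 0 in both hearts at 6 of 7 inner genes, against 32.5% of all genes. Its inner medians were 1.53 in the failed heart and 0.91 in the normal heart. K4me2 was above 0 in both hearts at 3 of 3 outer genes, against 36.3% of all genes. It was below 0 in both at 4 of 7 inner genes, against 31.5% of all genes.

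The mRNA levels did not split in this way, since Cyp2f4 was at the floor of 3.32 in the failed heart and at 5.56 in the normal heart and Cyp2s1 was silent in both. Pre-IP levels did differ, with outer medians of 7.87 in the failed heart and 7.07 in the normal heart and inner medians of 5.81 in the failed heart and 5.60 in the normal heart. The outer minus inner H3ac median was 1.64 in the failed heart and 2.53 in the normal heart, and it came to 0.60 in the failed heart and 1.69 in the normal heart after quantile normalization and to 0.75 in the failed heart and 1.02 in the normal heart with a floor of 50. For H4ac it was 1.88 in the failed heart and 1.76 in the normal heart, and came to 0.67 in the failed heart and 1.27 in the normal heart after quantile normalization and to 0.28 in the failed heart and 0.37 in the normal heart with a floor of 50. For K9me2 it was -3.48 in the failed heart and -1.37 in the normal heart, and kept its sign under both alternatives. The outer and inner sets were defined after their values were seen, so this is a description.

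**Figure D4:**
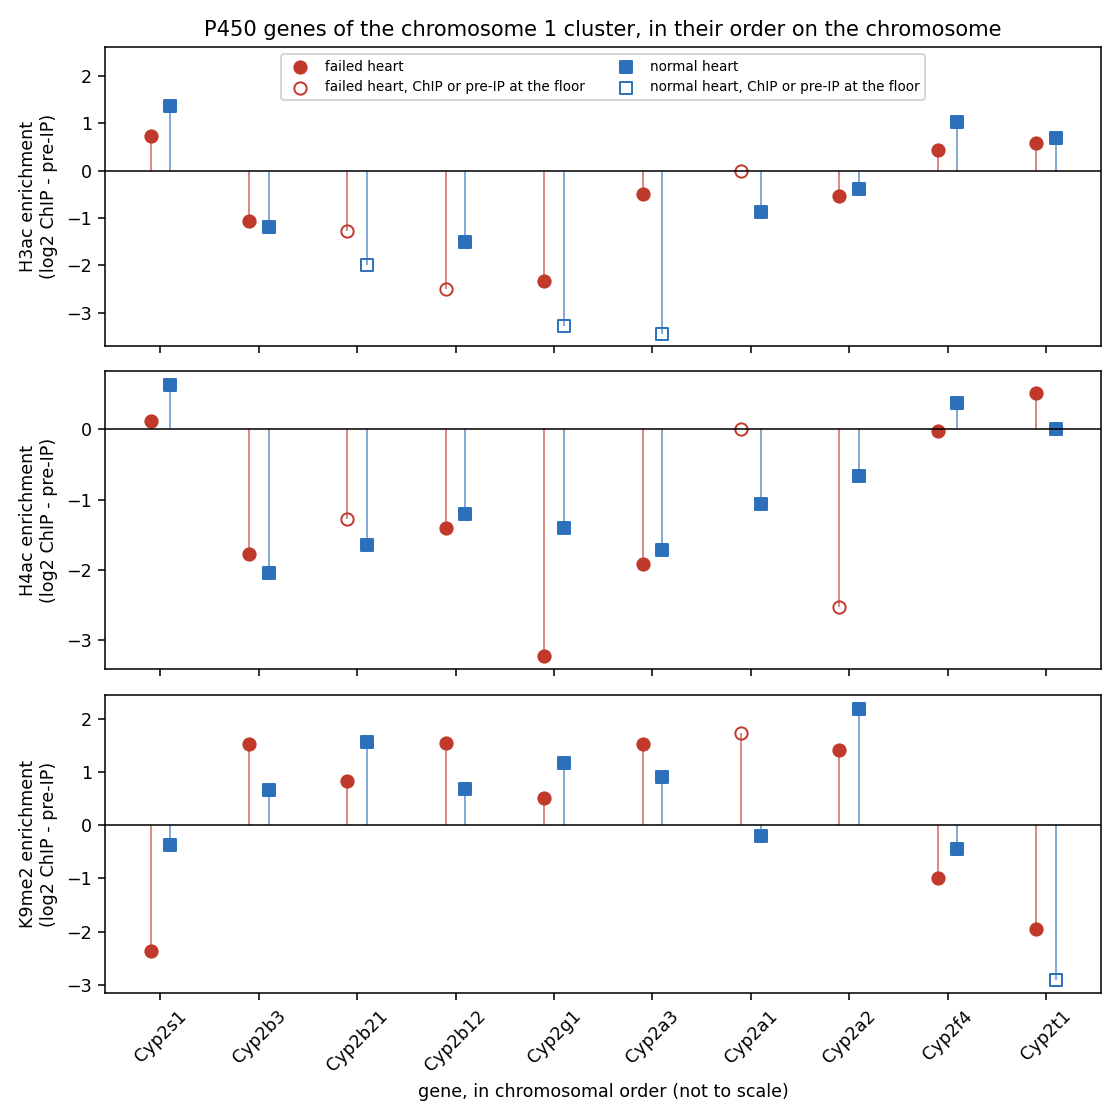
Enrichment (log2 ChIP minus pre-IP) of H3ac, H4ac and K9me2 for the 10 measured P450 genes of the chromosome 1 cluster, in chromosomal order and not to scale, with circles for the failed heart, squares for the normal heart and open symbols where ChIP or pre-IP was at the floor. H3ac is above 0 and K9me2 below 0 at Cyp2s1, Cyp2f4 and Cyp2t1 in both hearts.

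Other clusters gave mixed pictures. In the subfamily 2C cluster on chromosome 1, H3ac and H4ac were each below 0 in both hearts at 4 of 5 members. Of all silent genes, 41.6% were below 0 in both hearts for H3ac and 47.3% for H4ac. The exception, Cyp2c12, had its pre-IP value at the floor in the failed heart. ChIP values at the floor entered the count for Cyp2c6v1, in H3ac of both hearts, and Cyp2c13, in H3ac and H4ac of the failed heart. In the 3A cluster on chromosome 12, Cyp3a18 was low in both acetyl marks, with H4ac at -2.76 in the failed heart, its ChIP value at the floor, and -2.09 in the normal heart. Its neighbour Cyp3a2 had H4ac at -1.23 in the failed heart, its ChIP value at the floor, and 0.74 in the normal heart. In the 4F cluster on chromosome 7, Cyp4f17 had H3ac of 0.76 in the failed heart and 0.63 in the normal heart, whereas silent Cyp4f4 had -1.17 in the failed heart and -0.19 in the normal heart. In the 2J cluster on chromosome 5, expressed Cyp2j4 had K9me2 of 1.90 in the failed heart and 0.61 in the normal heart.

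Promoter sequence differed between the same classes. RefSeq promoter windows of the GRCr8 assembly, from 250 bases before to 50 bases after the start of a gene, matched 45 of the 57 members. The median number of CpG dinucleotides in the 300-base window was 2 for 18 silent liver genes, of which 6 had none, and 11 for 10 expressed members, which ran from 3 to 26. Over all 27457 windows the median was 7. All expressed genes had a median of 21 and all silent genes 11, so both P450 classes were poorer in CpG than genes of like expression. GC content had a median of 46.0% for silent liver genes and 59.0% for expressed members.

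Windows of 4 members show this range, with every CpG in capitals. Cyp2c7 is shown because its acetyl marks were the lowest, Cyp2g1 and Cyp2s1 because they stand for the inside and the edge of the chromosome 1 cluster, and Cyp20a1 because it had most CpG among expressed members. The windows lie on GRCr8 at chr1:247966144-247966443 on the plus strand (Cyp2c7), chr1:91273059-91273358 on the plus strand (Cyp2g1), chr1:90453024-90453323 on the minus strand (Cyp2s1) and chr9:69249623-69249922 on the plus strand (Cyp20a1), and each is written 5' to 3' in the direction of transcription.
Cyp2c7: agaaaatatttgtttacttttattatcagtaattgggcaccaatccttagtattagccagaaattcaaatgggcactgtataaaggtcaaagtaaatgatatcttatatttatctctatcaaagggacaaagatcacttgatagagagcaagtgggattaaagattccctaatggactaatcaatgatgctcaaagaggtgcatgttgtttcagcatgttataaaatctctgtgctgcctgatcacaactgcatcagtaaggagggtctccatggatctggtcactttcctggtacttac
Cyp2g1: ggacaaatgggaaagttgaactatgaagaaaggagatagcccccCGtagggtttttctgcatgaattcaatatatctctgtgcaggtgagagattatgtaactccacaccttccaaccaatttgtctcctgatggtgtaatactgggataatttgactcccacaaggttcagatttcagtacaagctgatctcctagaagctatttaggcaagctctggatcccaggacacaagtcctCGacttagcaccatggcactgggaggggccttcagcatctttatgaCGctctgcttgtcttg
Cyp2s1: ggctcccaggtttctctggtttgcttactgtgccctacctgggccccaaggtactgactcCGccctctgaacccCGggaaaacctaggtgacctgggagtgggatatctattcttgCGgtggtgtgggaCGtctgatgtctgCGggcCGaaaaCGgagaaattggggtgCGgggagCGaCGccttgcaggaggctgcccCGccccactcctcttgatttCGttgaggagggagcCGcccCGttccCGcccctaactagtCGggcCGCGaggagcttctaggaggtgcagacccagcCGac
Cyp20a1: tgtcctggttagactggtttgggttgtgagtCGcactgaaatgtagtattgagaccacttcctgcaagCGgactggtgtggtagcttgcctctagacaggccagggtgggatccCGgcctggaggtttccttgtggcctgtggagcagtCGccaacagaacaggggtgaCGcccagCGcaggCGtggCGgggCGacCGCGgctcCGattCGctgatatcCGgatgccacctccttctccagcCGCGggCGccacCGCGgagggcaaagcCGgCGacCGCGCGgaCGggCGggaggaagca

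The window of Cyp2c7 held 0 CpG, that of Cyp2g1 3, that of Cyp2s1 19 and that of Cyp20a1 26. CpG content did not order the acetyl marks in every case. Cyp20a1 had the most CpG of the expressed members, yet its H3ac was -1.43 in the failed heart and its H4ac -1.48 in the normal heart. Its H3ac in the normal heart and its H4ac in the failed heart were at the floor and give no exact value, and all rest on a dim pre-IP intensity of 32.1 in the failed heart and 29.9 in the normal heart. Cyp2f4, at the edge of the chromosome 1 cluster, had 1 CpG and H3ac above 0. Of the silent liver genes, Cyp26a1 with 25 CpG and Cyp39a1, an oxysterol hydroxylase, with 18 were the only ones above 5.

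Across the 45 members, GC content of the window and H4ac enrichment had a Spearman's rho of 0.611 in the failed heart and 0.557 in the normal heart, and for H3ac it was 0.483 in the failed heart and 0.567 in the normal heart. Over 11700 genes the H4ac value was 0.116 in the failed heart and 0.099 in the normal heart. The pre-IP level of the members was itself related to GC, with 0.304 in the failed heart and 0.315 in the normal heart, as was the mRNA level, with 0.560 in the failed heart and 0.544 in the normal heart. Promoter windows and probe sets lie at different places of a gene, and the part of base composition in the ChIP signal was not tested.

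The core of the xenobiotic response element, GCGTG, which the aryl hydrocarbon receptor binds, was searched on both strands. It was present in 2 of 18 silent liver windows (11.1%), 6 of 10 windows of expressed members (60%) and 30.9% of all windows. Among all genes it was in 34.9% of windows of silent genes and 50.7% of windows of expressed genes. The motif contains a CpG, so a window with no CpG cannot hold it. Cyp1b1 had 2 matches among its 19 CpG. No window was matched for Cyp1a1.

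**Figure D5:**
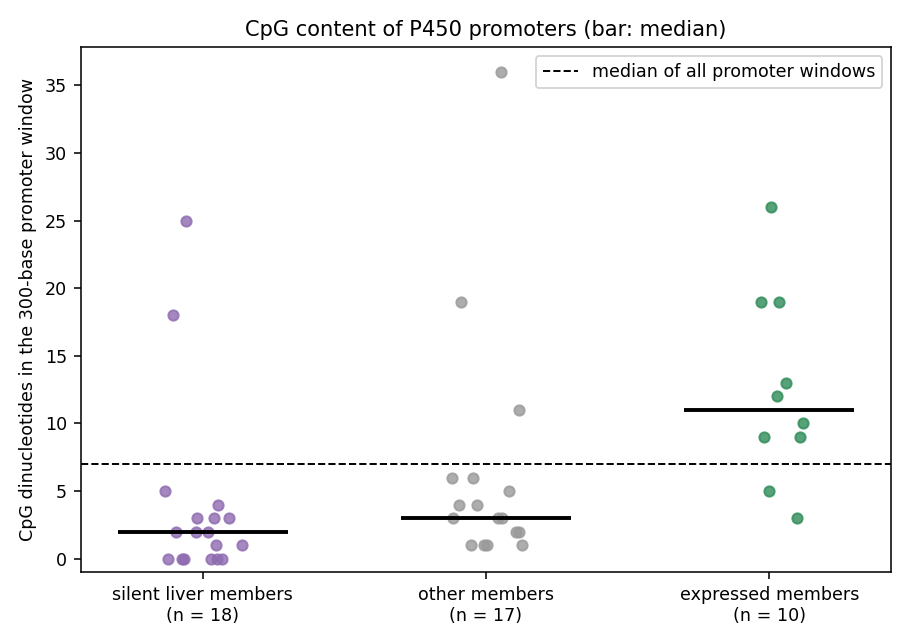
Number of CpG dinucleotides in the 300-base promoter window of 18 silent liver, 17 other and 10 expressed P450 genes, 1 point per gene, with black bars at the medians and a dashed line at the median of all windows, 7. Silent liver genes have a median of 2, and expressed members a median of 11.

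Differences in enrichment between the failed and the normal heart were counted like those in mRNA, with the filter applied to the mean of the 4 arrays that enter each difference. For H3ac, 3 of 16 members were higher in the failed heart, against 10.6% of all genes, and 1 was lower, against 8.61%. For H4ac, 2 of 19 were higher, against 4.87%, and 1 was lower, against 6.47%. For K4me2, 0 of 19 were higher, against 11.6%, and 0 lower, against 6.53%. For K4me3, 2 of 21 were higher, against 8.86%, and 0 lower, against 9.78%. With 16 to 24 members tested per mark, these counts amount to a few genes each.

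The repressive marks gave similar small counts. For K9me2, 5 of 24 members were higher in the failed heart, against 15.9% of all genes, and 3 were lower, against 9.14%. For K9me3, 4 of 23 were higher, against 9.05%, and 1 was lower, against 11.4%. For K20me3, 2 of 22 were higher, against 8.79%, and 3 were lower, against 8.49%. For K27me2, 1 of 22 was higher, against 6.85%, and 2 were lower, against 6.32%. Pre-IP DNA, in which no expression enters, gave 1 of 21 members higher, against 3.85% of all genes, and 2 lower, against 3.52%.

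Several of the counted members also differed in input. Cyp2d4 was higher by 2-fold in H3ac, H4ac, K4me3, K9me2, K9me3 and K27me2, and its pre-IP level was 6.63 in the failed heart and 7.85 in the normal heart, a difference of -1.22 that enters every mark. At its second probe set none of these marks differed by 2-fold. There H3ac was 0.38 in the failed heart and -0.17 in the normal heart, and K9me2 was 0.77 in the failed heart and 0.10 in the normal heart. Cyp2s1 was lower in K9me2, K20me3 and K27me2, and its pre-IP was higher in the failed heart by 1.72. Cyp4f5 was lower in H3ac, K9me2 and K9me3, and its pre-IP was higher by 0.99. Cyp2e1, lower in H4ac, had a pre-IP of 6.51 in the failed heart and 7.68 in the normal heart.

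Other counted members had nearly equal input. Cyp46a1, with a pre-IP of 6.96 in the failed heart and 7.02 in the normal heart, was higher in H3ac and K9me2. Cyp4v3, with 7.59 in the failed heart and 7.52 in the normal heart, was lower in K20me3, at 0.00 in the failed heart and 1.51 in the normal heart, and in K27me2, at 0.09 in the failed heart and 1.54 in the normal heart, while its mRNA differed by 0.47.

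Of the 5 transcripts counted as different, 1 had a counted mark difference. Cyp2e1, lower in mRNA, was lower in H4ac as well, at -0.80 in the failed heart and 0.40 in the normal heart. Cyp4f17 passed the filter in all 8 marks and differed by no more than 0.62 in size in any of them, with H3ac at 0.76 in the failed heart and 0.63 in the normal heart. Cyp4b1 passed it in 0 marks; its widest differences were in K9me3, at -0.94 in the failed heart and 0.81 in the normal heart, and in K20me3, at -0.54 in the failed heart and 0.77 in the normal heart. Cyp2t1 likewise passed it in 0 marks. Cyp11a1, the higher transcript, passed it for H4ac, at 0.43 in the failed heart and 0.58 in the normal heart, and for K27me2, at 0.34 in the failed heart and 0.63 in the normal heart.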

How the data were processed

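Deposited values are linear intensity, 1 value for each of 31099 probe sets on each of 20 arrays. For the tool by which the authors summarised them, the sources used here give no name. Each deposited array has a mean of 500.03 to 500.17 after 2% of values at each end are removed, as global scaling gives. Per the labels' protocols, RNA was made into biotin-labelled cDNA, and fragmented DNA was amplified by T7 transcription. The table held 0 columns outside the 20 samples.

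The deposited intensity of every array was divided by its median, multiplied by 100, floored at 10 and turned into log2. Probe sets were named from the platform annotation where it gives 1 symbol. Clusters used the gene order of GRCr8. With 1 array per assay and heart, no test was run, and the number of arrays limits the precision. Differences were counted at 2-fold. Python 3.11.15, pandas 2.3.3, numpy 2.4.6 and scipy 1.17.1 were used, and the counting steps were tested on simulated data.

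Members and gene lists were chosen with earlier results of these data known. Named genes were all expressed members, all members counted at 2-fold in mRNA, the 5 liver genes with the highest mRNA, the 2 highest and 2 lowest members per mark with no value at the floor, and partner genes counted at 2-fold. Others are said to be chosen after their values were seen, or are neighbours and relatives of these. Alternatives were the values as deposited, quantile normalization, a floor of 50, no level filter, a level of 200, the mean of a gene's probe sets, leaving out shared probe sets, and ChIP without pre-IP. Leaving out members at the floor and the cluster comparison were chosen after seeing the data.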

Additional observations from a re-analysis of the deposited data

How the results depend on the processing

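No paired analysis was possible because each group held 1 array and no result came from a test. Values as deposited gave 3 K4me2 differences among members instead of 0, 13 silent liver genes above 0 in both hearts for K20me3 instead of 8, and -1.04 for Cyp4f6 mRNA. Quantile normalization gave 2 H3ac and 3 K4me2 differences and -1.07 for Cyp4f6. Its class gap (silent liver minus expressed median) was -0.07 for H3ac in the failed heart, and -0.49 in the failed heart and -0.71 in the normal heart for H4ac. Its cluster difference (outer minus inner median) was 0.60 in the failed heart and 1.69 in the normal heart for H3ac, and 0.67 in the failed heart for H4ac. The mean of a gene's probe sets gave 1 K4me2 difference.

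A floor of 50 gave a class gap of 0.00 for H3ac in the normal heart, and -0.28 in the failed heart and -0.49 in the normal heart for H4ac. Silent liver genes on 1 side in both hearts came to 9 for H3ac, 10 for H4ac, 9 for K4me2 and 6 for K27me2. The rho of mRNA with H3ac was 0.071 in the failed heart and 0.026 in the normal heart. The cluster difference was 0.75 in the failed heart and 1.02 in the normal heart for H3ac, 0.28 in the failed heart and 0.37 in the normal heart for H4ac, and -2.22 in the failed heart for K9me2. This floor raises more dim values to 1 level by its construction. Without the level filter 7 members were higher and 12 lower in mRNA, and differing members numbered 17 for H3ac, 17 for H4ac, 16 for K4me2, 17 for K4me3, 21 for K9me2, 18 for K9me3, 27 for K20me3 and 15 for K27me2, since dim genes were then counted.

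ChIP levels without subtraction of pre-IP gave a negative class gap for all 8 marks in both hearts. The class gap in the failed and the normal heart was then -2.32 and -2.26 for H3ac, -2.80 and -2.23 for H4ac, -2.06 and -1.87 for K4me2, -1.44 and -1.30 for K4me3, -0.93 and -1.33 for K9me2, -1.12 and -1.08 for K9me3, -0.43 and -0.94 for K20me3, and -1.44 and -1.11 for K27me2. The rho with mRNA was 0.488 for H3ac and 0.487 for K4me2 in the normal heart. In the failed and the normal heart it was 0.165 and 0.336 for K4me3, 0.125 and 0.275 for K9me2, 0.215 and 0.502 for K9me3, 0.033 and 0.389 for K20me3, and 0.204 and 0.379 for K27me2. Apart from the floor and the level filter, the cause of these moves was not tested. A level of 200, leaving out shared probe sets and leaving out members at the floor moved no result past its limit, which was 0.5 for a median, 0.2 for a rho and 1.5 times for a count. Each comparison rests on 1 array per assay and heart, and dim probe sets have the least reliable values.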

Other observations

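Cyp51, the sterol demethylase of cholesterol synthesis, has a symbol outside the pattern that chose the members, and it was measured by 2 probe sets. Its mRNA level was 9.18 in the failed heart and 8.82 in the normal heart by one of them and 7.41 in the failed heart and 6.77 in the normal heart by the other, with differences of 0.36 and 0.65. H4ac enrichment was -0.01 in the failed heart and 0.20 in the normal heart at the brighter one. At the other probe set it was -0.17 in the failed heart and 1.06 in the normal heart.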
